A study of Brassica rapa subsp. pekinensis with 6 samples.

Results

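Kenshin and Chiifu, inbred lines of Chinese cabbage (*Brassica rapa* ssp. *pekinensis*), were compared over 3 temperatures, pairing the samples taken at the same temperature. The comparison used all 6 of the 6 samples, 3 per line. It covered 26948 of the 41173 genes on the Br135K microarray, namely those whose identifier starts with Bra and whose probe intensity (PI) was over 500 in at least 1 sample. Chiifu is a temperate line, and Kenshin is a line of warm-climate origin that breeders use as a source of heat tolerance. Shoots of several plants of each line were taken after about 3 weeks at 22 °C, after 2 more days at 12 °C, and after a further 3 h at 28 °C. Each line is a single inbred line, and no mutation or transgene is named for either. The labels list 1 sample for each line and temperature, whereas the study speaks of means of repeated experiments. A deposited value may therefore be a mean of repeats, which the sources used here do not settle, and no spread between repeats is given. The record's design text mentions a water treatment that no sample label contains.

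RNA was labelled with the dye Cy3 and hybridised to overlapping 3′ probes of each gene model. The probes were designed on the sequence of Chiifu. Whether sequence differences of Kenshin under the probes lowered its PI was not tested. The deposited PI values were close in distribution. The sample medians lay between 965 and 1034, the upper quartiles between 4692 and 4758, and the number of genes over 500 between 23669 and 24035. The feature made of random sequence gave 26.9 to 30.5. Precision is limited by the small number of arrays. The line labels and the tissue were not checked against marker genes here.

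When plants warm, heat shock transcription factors switch on genes for chaperones. Small heat shock proteins (HSPs) hold unfolding proteins in solution, and the larger HSP70 and HSP101 chaperones refold them or pull aggregates apart. Milder warmth is read through the light receptor phytochrome B and the phytochrome-interacting factors (PIFs) that it restrains, which steer growth. Lines adapted to warm climates can differ from temperate ones in the resting level of such genes, in their response, or in both.

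Lines were compared on the log2(PI + 50) scale with limma, with temperature as a block and 3 Kenshin against 3 Chiifu samples. A gene was called at an adjusted p under 0.05 (Benjamini-Hochberg over all genes tested). All differences below are log2 Kenshin over Chiifu on this scale, so positive values are higher in Kenshin. The fit had 2 residual degrees of freedom per gene. Its scatter is the change of the line difference between temperatures, which no replicate separates from array noise, so that a gene whose line difference moves with temperature gets a large standard error (SE).

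More genes were higher in Chiifu than in Kenshin across the temperatures. Chiifu was higher for 1289 genes (4.78% of those tested) and Kenshin for 658 genes (2.44%). Together 1947 genes were called (7.23%), of which 66.2% were higher in Chiifu. The asymmetry was smaller before adjustment, where 3081 genes were higher in Chiifu and 2827 in Kenshin at an unadjusted p under 0.05. In the count of directions alone, with no test, 6982 genes had the higher value in Kenshin at all 3 temperatures and 5346 in Chiifu, an order that median scaling turned (5843 and 6087). The median difference over all genes tested was 0.06, and the median of its size was 0.25, with a median SE of 0.18. The counts depended on all 3 pairs. With 1 pair left out they fell to between 176 and 433 for Kenshin and between 434 and 953 for Chiifu, with the lowest counts without the 12 °C pair and, for Kenshin, equally low ones without the 22 °C pair.

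The called differences were large. The median size was 1.89 among genes higher in Chiifu, a 3.70-fold difference with an upper quartile of 2.93 on the log2 scale. Among genes higher in Kenshin it was 1.62, a 3.08-fold difference with an upper quartile of 2.46. The smallest called sizes were 0.78 and 0.79. At least an 8-fold difference at each temperature was found for 220 of the 1289 and 73 of the 658 genes. Called genes were less often steady across temperatures than all genes tested, a difference with no test. The PI varied less than 2-fold over the temperatures within each line for 61.8% of the genes higher in Chiifu and for 55.8% of those higher in Kenshin, where all genes tested gave 67.0%.

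**Figure D1:**
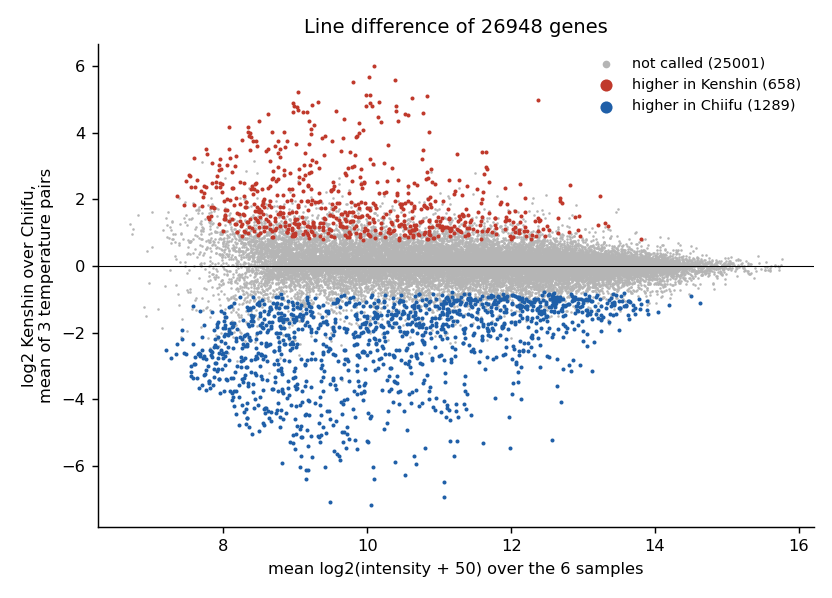
Line difference (log2 Kenshin over Chiifu, mean of the 3 temperature pairs) against mean log2(PI + 50) over the 6 samples, 1 point per gene for 26948 genes. Red points are the 658 genes called higher in Kenshin and blue points the 1289 called higher in Chiifu. Blue points reach the bright end of the axis, where red ones are few.

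The line difference was smallest at 12 °C. With a 2-fold cutoff on 1 pair of samples, and so without a test, 3002 genes differed between the lines at 12 °C, 4349 at 22 °C and 4640 at 28 °C. The standard deviation of the difference over genes was 0.82, 0.96 and 0.97 at 12, 22 and 28 °C. The 12 °C pair gave the fewest genes under each of the other 7 settings tried for this count, which were chosen after seeing the data.

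The direction also shifted with temperature. At 22 °C, 2110 genes (7.83%) were at least 2-fold higher in Kenshin and 2239 (8.31%) in Chiifu. At 12 °C the counts were 1225 (4.55%) and 1777 (6.59%). At 28 °C, 2572 genes (9.54%) were higher in Kenshin and 2068 (7.67%) in Chiifu. Kenshin thus had the larger count at 28 °C alone, and quantile normalization kept this order (2357 and 2231 genes at 28 °C), but scaling each sample to the same median turned it (2276 and 2403). Chiifu had the larger count at 22 and 12 °C under both scalings. Across genes, the line difference at 22 °C correlated with that at 12 °C at r = 0.711, the one at 22 °C with that at 28 °C at r = 0.633, and the one at 12 °C with that at 28 °C at r = 0.632. These values run over 26948 genes, which are not independent replicates.

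Genes higher in Chiifu were more often so at every temperature. A 2-fold difference at all 3 temperatures was found for 992 genes higher in Chiifu (3.68% of those tested) and 463 higher in Kenshin (1.72%). These made up 29.1% of the 3413 genes that were at least 2-fold higher in Chiifu at any temperature, and 10.9% of the 4261 in Kenshin. The commonest pattern for Kenshin was a difference at 28 °C alone, with 1564 genes or 36.7%, against 643 genes for Chiifu. The count of 463 was limited most by the 12 °C pair. It rose to 834 without that pair, to 637 without the 22 °C pair and to 638 without the 28 °C pair. Such a count cannot fall when a pair is dropped. In 244 genes the direction turned, with each line at least 2-fold higher at some temperature.

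**Figure D2:**
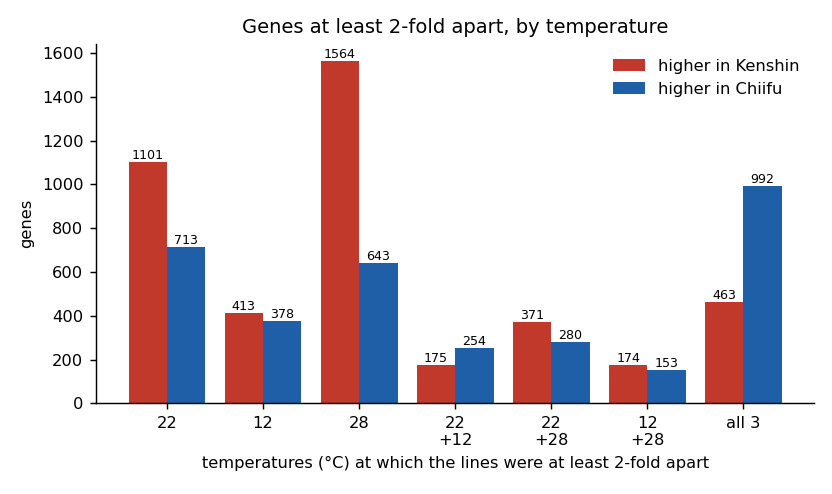
Number of genes at least 2-fold apart between the lines, by the temperatures (°C) at which they were so. Each gene is counted once per direction, with red bars for genes higher in Kenshin and blue bars for genes higher in Chiifu. The tallest Kenshin bar is 28 °C alone with 1564 genes, and the tallest Chiifu bar is all 3 temperatures with 992.

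Some genes were read in one line and barely in the other. A PI over 500 in every Chiifu sample and at or under 100 in every Kenshin sample was found for 117 genes, or 0.530% of the 22065 genes over 500 in every Chiifu sample. The reverse was found for 35 genes, or 0.157% of the 22271 genes over 500 in every Kenshin sample. Of the 117, 21 were at or under the random-sequence feature in all 3 Kenshin samples. Of the 35, 2 were so in Chiifu. Each gene's PI was averaged over the 3 samples of the line that gave signal. The median of these means was 1525 for Chiifu and 1373 for Kenshin. The highest of these means was 12645 in Chiifu and 3495 in Kenshin. All 152 were called, where 7.23% of all genes tested were. The limits that picked these genes set the lines apart in every pair, so these calls are no independent evidence. Without any gene at or under 100 in every sample of 1 line, a setting chosen after seeing the data, 1113 genes higher in Chiifu and 593 higher in Kenshin were left.

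The larger number of Chiifu calls was not limited to genes that Kenshin barely showed. Among called genes, 725 of the 1289 (56.2%) and 334 of the 658 (50.8%) were over 500 in at least 1 sample of each line. When only such genes were fitted, 502 higher in Chiifu and 201 higher in Kenshin were called. Whether sequence differences under the Chiifu-designed probes lowered the Kenshin PI of such genes was not tested. The imbalance widened with brightness as a ratio of the shares called, but not as the gap between them. Of 5 groups of equal size by mean PI, the dimmest is given first. In it, 9.76% were called higher in Chiifu and 6.27% higher in Kenshin. In the middle group these shares were 3.86% and 1.56%. In the brightest group, which starts at a mean PI of 8083, 81 genes (1.5%) were called higher in Chiifu and 5 (0.0928%) in Kenshin.

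**Figure D3:**
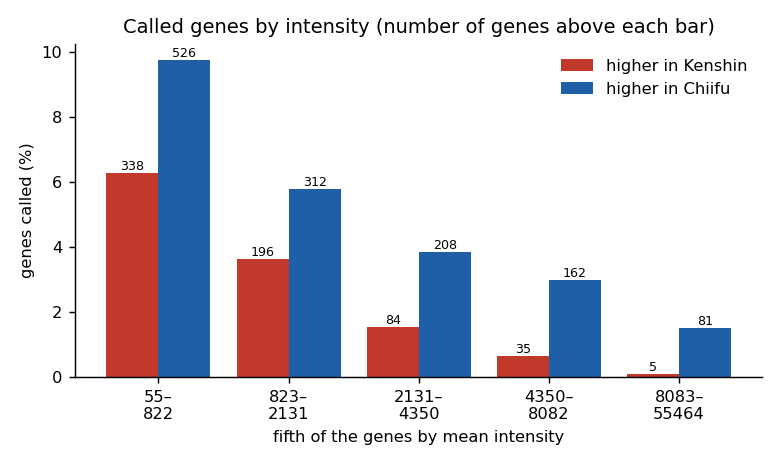
Percentage of genes called higher in Kenshin (red) or in Chiifu (blue) in each of 5 groups of equal size, ordered by mean PI over the 6 samples, with the number of called genes above each bar and the PI range of the group below it. Both shares fall with PI, from 6.27% to 0.0928% for Kenshin and from 9.76% to 1.5% for Chiifu.

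The 4 most separated genes, ranked by the smallest of the 3 paired differences, carry identifiers only, since the sources used here give them no name. Bra012403 read 11770, 12480 and 13684 in Chiifu at 22, 12 and 28 °C. In Kenshin it was lowest at 22 °C, below the random-sequence feature, and read 37.0 at 12 °C and 57.5 at 28 °C. Bra034729 read 9214, 7363 and 8525 in Chiifu at the same temperatures and 12.7, 12.9 and 8.90 in Kenshin. All 3 Kenshin readings of Bra034729 lay below the random-sequence feature, so the difference is a bound of at least 299.7-fold. This bound was taken on PI with nothing added, so it is not comparable with the mean differences below. In the opposite direction, Bra021726 read 78.0, 71.0 and 113.3 in Chiifu and 8072, 8704 and 9394 in Kenshin. Bra020698 read 202.4, 92.8 and 155.9 in Chiifu and 13255, 7208 and 8215 in Kenshin. In none of the 4 did the lines come near each other at any temperature. The mean differences were -7.16 (SE 0.15) for Bra012403, 6.01 (SE 0.15) for Bra021726 and 5.57 (SE 0.16) for Bra020698. The mean of Bra012403 includes the 22 °C pair, whose Kenshin reading lay below the random-sequence feature. The adjusted p of the fit was 0.0014 for each of the 4 genes. All 4 stayed called under every alternative in which they were tested. The 4 were ranked on the paired differences that the fit tests, so neither the p nor the kept calls are independent evidence.

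The 3 tested heat shock regulators had higher values in Kenshin at every temperature without reaching the threshold. The list held BrHSFA2 and BrHSFB2A, heat shock transcription factors, and BrROF1 and BrROF2, peptidyl-prolyl isomerases of which ROF2 modulates HSFA2 in Arabidopsis. BrROF1 (Bra013224) stayed between 11 and 59.1 and was not tested. None of the other 3 was called, and their median difference was 0.97, against 0.06 for all genes tested. The 3 tested genes had been chosen by the study on these samples, in part for a higher PI in Kenshin at 22 °C and under warming, so their direction is no independent evidence.

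BrHSFA2 (Bra000557), which sustains chaperone expression after heat in Arabidopsis, read 67.7, 223 and 1256 in Chiifu at 22, 12 and 28 °C and 256, 542 and 1786 in Kenshin. Kenshin had the higher value within each pair, and the lines overlapped across temperatures. The difference narrowed in the order of sampling, from 1.38 to 1.12 and then 0.49, with a mean fold of 1.99 (log2 SE 0.22, adjusted p = 0.082). BrHSFB2A (Bra029292) had a mean of 0.65 (adjusted p = 0.176). BrROF2 (Bra037477) had differences of 2.23, 0.27 and 0.41 at these temperatures and a mean of 0.97 (adjusted p = 0.297).

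The small HSPs did not share a direction across temperatures. Of 21 measured and tested members, 1 was higher in Kenshin, 1 was higher in Chiifu and 19 did not pass the test, where 2.44% and 4.78% of all genes tested were called. Their median difference was 0.63 over the temperatures, made up of 0.54 before treatment (22 °C), -0.13 in the cold (12 °C) and 0.77 after warming (28 °C). The 9 members that the study had chosen on these samples had a median of 0.79, and the 12 others had 0.17. At 12 °C only 10 of the 21 had the higher value in Kenshin, against 16 at 28 °C.

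The called members are 2 HSP20-like genes that the study assigned to the same Arabidopsis gene, and they differed in opposite directions. Bra012949 read 5473, 4945 and 10796 in Chiifu at 22, 12 and 28 °C and 1568, 1799 and 1843 in Kenshin. Every Chiifu sample was above every Kenshin sample. The mean difference was -1.91 (SE 0.25, adjusted p = 0.0229), or 3.75-fold higher in Chiifu. Bra030910, one of the genes chosen on these samples, read 827, 945 and 4041 in Chiifu and 2406, 2649 and 9204 in Kenshin. Kenshin was higher within each pair by 1.18 to 1.48, while the Chiifu value at 28 °C exceeded the Kenshin values at 22 and 12 °C. Its mean difference was 1.37 (SE 0.15, adjusted p = 0.0154). Whether the probes of these similar genes read each other's RNA was not tested. Without the 22 °C pair the adjusted p became 0.110 for Bra012949 and 0.0962 for Bra030910, and without the 12 °C pair it became 0.0709 and 0.101. In the fit with no temperature block, Bra012949 kept its call (adjusted p = 0.0197) and Bra030910 lost it (adjusted p = 0.490).

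The small HSPs BrHSP18.2 and BrHSP21 turned with temperature, in the sense that each line was at least 2-fold higher at some temperature. BrHSP18.2 (Bra002539) read 73.2, 259 and 747 in Chiifu at 22, 12 and 28 °C and 206, 57.8 and 5114 in Kenshin. Kenshin thus had the lowest and the highest reading of this gene. BrHSP21 (Bra026317), whose Arabidopsis counterpart protects chloroplast proteins, read 45.3, 166 and 729 in Chiifu and 310, 53.7 and 603 in Kenshin. Neither was called (adjusted p = 0.667 and 0.890). All 3 BrHSP18.2 copies had the lower value in Kenshin at 12 °C and the higher value at 28 °C. A copy of the class II gene BrHSP17.6II (Bra006137) had differences of 3.24, 0.17 and -0.30 at 22, 12 and 28 °C, while the other copy, Bra008920, had -1.24, -0.16 and -0.44.

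The large chaperones had higher values in Kenshin, most of all at 22 °C. Of 7 members, 1 was called higher in Kenshin and none in Chiifu, where 2.44% and 4.78% of all genes tested were called, and the median difference was 0.71, with 0.99, 0.65 and 0.48 at 22, 12 and 28 °C. All 7 had the higher value in Kenshin at 22 and at 12 °C, and 5 of 7 at 28 °C. The study had chosen 1 of the 7 on these samples, a DnaJ-domain gene (Bra027363) that was not called.

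The called member was BrHSP98.7 (Bra007816), a ClpB-type chaperone that is mitochondrial in Arabidopsis. It read 645, 702 and 1353 in Chiifu at 22, 12 and 28 °C and 1332, 1269 and 2425 in Kenshin. The difference was 0.99, 0.81 and 0.82 at these temperatures, nearly the same in each pair. Its mean was 0.87 (SE 0.15, adjusted p = 0.0408), a 1.83-fold difference. The call was lost under 7 of 12 alternatives, with adjusted p up to 0.328.

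The BrHSP70 pair had the largest differences of the group but did not pass. Bra001457 read 1560, 2512 and 8099 in Chiifu at 22, 12 and 28 °C and 9758, 6732 and 13032 in Kenshin. Its difference was 2.61, 1.40 and 0.68, with a mean of 1.56 (SE 0.40, adjusted p = 0.106). Bra038734 read 1049, 1159 and 7871 in Chiifu and 6488, 4093 and 7597 in Kenshin. At 28 °C the lines were level in this copy (-0.05), and its mean was 1.43 (adjusted p = 0.22). The Kenshin values at 22 °C were thus near those that Chiifu had at 28 °C. Without the 28 °C pair Bra038734 passed the threshold (adjusted p = 0.028) and Bra001457 did not (adjusted p = 0.0579). Bra001457 passed with a variance trend in the fit (adjusted p = 0.0456). The BrHSP101 copies, whose product pulls apart aggregates, had means of 0.31 (Bra003807, adjusted p = 0.417) and 0.71 (Bra015922, adjusted p = 0.0931).

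The exportin genes BrXPO1A, for a receptor that carries proteins out of the nucleus, were nearly level between the lines. Their 3 copies had mean differences of 0.11, -0.03 and -0.06, and none was called. Every sample of the 3 copies read between 6511 and 12608.

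Among 5 thermosensing genes, 1 was called higher in Kenshin and none in Chiifu, where 2.44% and 4.78% of all genes tested were called, and the median difference was -0.09. BrPIF4 promotes growth in warmth in Arabidopsis. Its copy Bra000283 read 19533, 12261 and 15413 in Chiifu at 22, 12 and 28 °C and 13610, 9359 and 24186 in Kenshin. Its copy Bra037742 read 3718, 4145 and 3350 in Chiifu and 1988, 3218 and 4296 in Kenshin. Both copies had the lower value in Kenshin at 22 and 12 °C and the higher one at 28 °C, and neither was called (adjusted p = 0.90 and 0.603). The BrPHYB copies, for phytochrome B, had means of -0.30 (Bra001650) and 0.38 (Bra022192) and were not called.

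The called gene was BrPIL2 (Bra007660), the homologue of PIF6 in Arabidopsis, which the study had chosen on these samples. It read 218, 239 and 537 in Chiifu and 426, 684 and 1883 in Kenshin. The difference widened in the order of sampling, from 0.83 to 1.35 and 1.72, and the lines overlapped across temperatures. Kenshin was 2.46-fold higher on average (log2 SE 0.22, adjusted p = 0.0427). The call was lost under 8 of 12 alternatives, with adjusted p up to 0.345.

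Light and growth regulators differed between the lines before treatment and much less afterwards. The list held BrHYH, homologues of the light-signalling factor HY5, BrCOL1 and BrCOL2, CONSTANS-like zinc finger factors, and BrGA2OX1, which inactivates gibberellin. All 6 were at least 2-fold higher in Kenshin at 22 °C, where 7.83% of all genes tested were. None was at 12 °C, where 4.55% of all genes were, and 1 was at 28 °C, where 9.54% were. The median difference was 2.92 at 22 °C, close to 0 at 12 °C (-0.0019), and 0.23 at 28 °C. None was called, since the large change of the difference enters the SE. The study names these genes as examples of those that fell in Kenshin from 22 °C to both other temperatures. They were thus chosen on these samples for a high Kenshin value at 22 °C, and their count there is a description with no independent support.

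BrHYH (Bra022225) read 289, 748 and 142 in Chiifu at 22, 12 and 28 °C and 3262, 1180 and 91.9 in Kenshin. BrCOL1 (Bra023541) read 145, 576 and 119 in Chiifu and 1801, 661 and 170 in Kenshin. BrGA2OX1 (Bra008362) read 64.5, 702 and 11.4 in Chiifu and 701, 349 and 28.8 in Kenshin. At 28 °C the BrGA2OX1 reading lay below the random-sequence feature in Chiifu and near it in Kenshin. That pair gives no measured difference, though it enters the mean. In all 3 the highest Chiifu reading came at 12 °C. That the Kenshin readings were highest at 22 °C and lowest at 28 °C was part of the choice of these genes. The means were 1.16 (adjusted p = 0.446), 1.27 (adjusted p = 0.357) and 0.72 (adjusted p = 0.631).

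The BrMPSR1 genes, for RING-type ubiquitin ligases that sense misfolded proteins in Arabidopsis, had lower values in Kenshin at 22 °C. Bra016290 read 7671, 2322 and 8680 in Chiifu at 22, 12 and 28 °C and 2674, 1891 and 8894 in Kenshin. Bra012441 read 4542, 1527 and 6770 in Chiifu and 2633, 1404 and 6957 in Kenshin. The lines were level at 28 °C in both copies. Neither was called (adjusted p = 0.40 and 0.52).

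**Figure D4:**
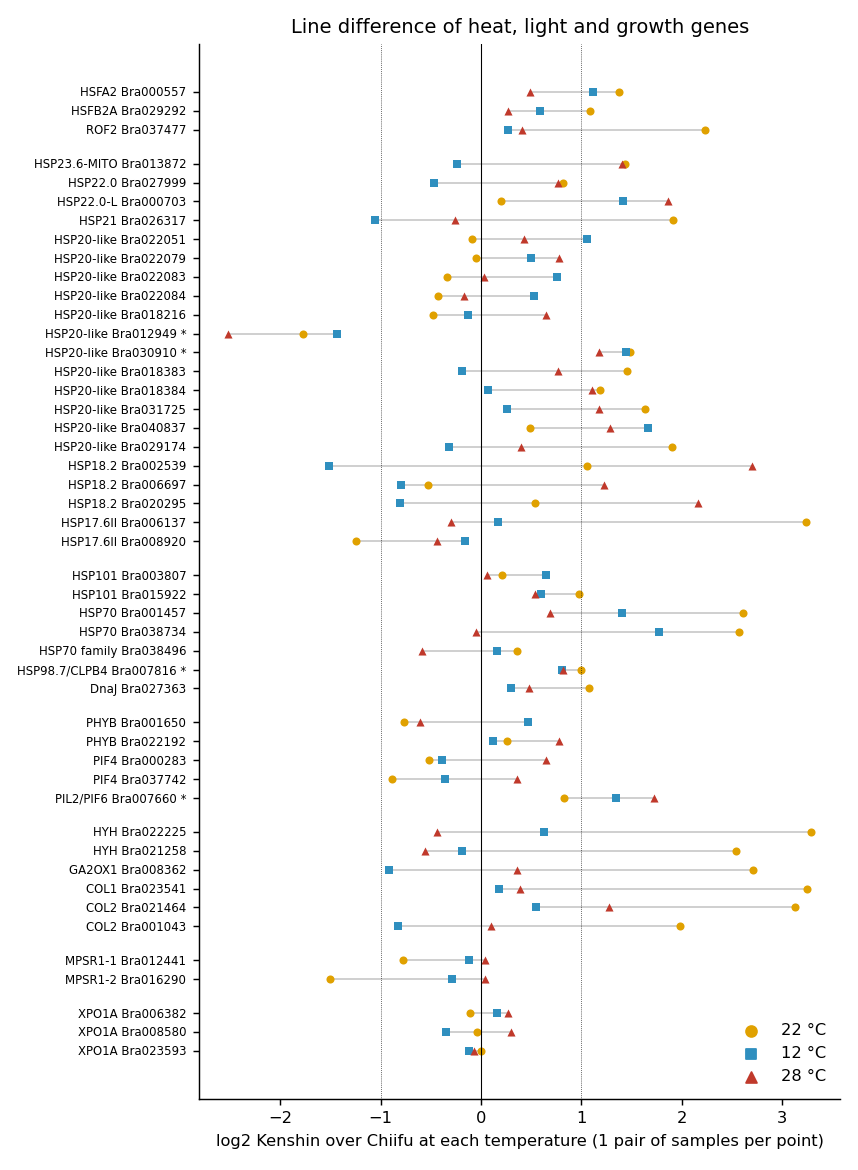
Line difference (log2 Kenshin over Chiifu) of the 47 tested heat, light and growth genes at 22 °C (circles), 12 °C (squares) and 28 °C (triangles), each from 1 pair of samples. Dotted lines mark 2-fold either way, and an asterisk marks the 4 called genes. The 6 light and growth regulators lie beyond 2-fold at 22 °C, and none does at 12 °C.

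**Figure D5:**
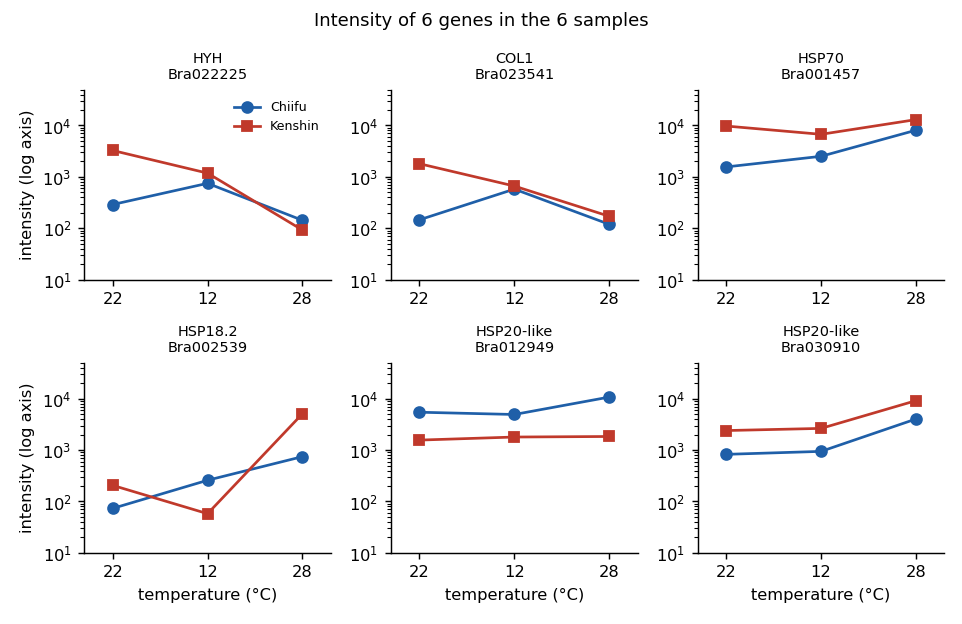
PI (log axis) of 6 named genes in Chiifu (blue circles) and Kenshin (red squares) at 22, 12 and 28 °C, 1 sample per point, with lines joining the samples of a line. BrHYH and BrCOL1 are more than 2-fold apart at 22 °C only, BrHSP70 closes towards 28 °C, BrHSP18.2 crosses, and the 2 HSP20-like genes stay apart in opposite directions.

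The remaining lists come from the 64 genes that the study picked on these samples as candidates for adaptation in Kenshin, by a higher PI in Kenshin at 22 °C and by their levels under warming, which uses the 28 °C samples and, as the reference for warming, those at 12 °C. Their direction, their number of calls and lack of overlap between the lines are therefore no independent evidence, in this list or its groups below. The share of genes without overlap among all genes tested is not given here. Of the 64, 19 were called higher in Kenshin and none in Chiifu, where 2.44% and 4.78% of all genes tested were called, and 45 did not pass. The median difference was 1.36, with 1.38, 0.79 and 2.14 at 22, 12 and 28 °C. At 12 °C, 27 of the 64 were at least 2-fold higher in Kenshin and 1, BrHSP18.2 Bra002539, in Chiifu. Of the 33 other list genes tested, 1 was called in each direction, and their median was 0.30.

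Beside BrPIL2, which was called (above), and the heat shock factors, the list held 13 transcription factor genes, and none of these was called. Their medians were 1.16, 0.17 and 2.47 at 22, 12 and 28 °C, and 1 of 13 was at least 2-fold higher in Kenshin at 12 °C. BrLBD3 (Bra026042), for a LOB-domain factor, came nearest the threshold with 171, 393 and 272 in Chiifu and 522, 824 and 1729 in Kenshin. Its lines did not overlap, and its mean was 1.61 (SE 0.33, adjusted p = 0.0639). A Dof-type zinc finger gene (Bra012119) read 488, 1459 and 209 in Chiifu and 1159, 983 and 2746 in Kenshin, so the order of the lines at 12 °C was the reverse of that at 28 °C.

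Of 5 genes for resistance proteins and receptor kinases, 3 were called higher in Kenshin, against 2.44% of all genes tested. The median was 1.79. BrRLP22 (Bra021803), for a receptor-like protein, read 163, 71.9 and 201 in Chiifu at 22, 12 and 28 °C and 960, 963 and 2013 in Kenshin. A leucine-rich repeat kinase gene (Bra030411) read 92.0, 75.4 and 40.6 in Chiifu and 874, 1051 and 1992 in Kenshin. A CC-NBS-LRR resistance gene (Bra037453) read 185, 155 and 420 in Chiifu and 539, 706 and 1425 in Kenshin. The lines did not overlap in any of the 3. The means were 2.78 (adjusted p = 0.0064), 3.44 (adjusted p = 0.0148) and 1.62 (adjusted p = 0.0141). Such families have many similar members in the genome, and whether these probes took up RNA of other members was not tested.

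Of 4 transporters and metal-binding proteins, 2 were called higher in Kenshin, against 2.44% of all genes tested. BrHIPP27 (Bra009662), a heavy metal-associated protein, read 115, 329 and 449 in Chiifu at 22, 12 and 28 °C and 1102, 1195 and 7086 in Kenshin, with a mean difference of 2.78 (SE 0.43, adjusted p = 0.0328). A MATE efflux carrier gene (Bra015133) read 77.8, 181 and 255 in Chiifu and 350, 510 and 1175 in Kenshin, with a mean of 1.64 (SE 0.20, adjusted p = 0.0179). Neither gene's lines overlapped.

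Of 13 enzyme genes, 5 were called higher in Kenshin, against 2.44% of all genes tested, and the median was 1.49. BrSDH2-2 (Bra028469), for an iron-sulphur subunit of mitochondrial complex II, read 468, 531 and 545 in Chiifu at 22, 12 and 28 °C and 2517, 2395 and 6064 in Kenshin. It was 5.98-fold higher in Kenshin on average (log2 2.58, SE 0.30, adjusted p = 0.016). BrGLN1.3 (Bra021276), for a cytosolic glutamine synthetase, read 1197, 1053 and 2579 in Chiifu and 2798, 3121 and 7326 in Kenshin. Its difference was close in the 3 pairs, at 1.19, 1.52 and 1.49 (mean 1.40, SE 0.16, adjusted p = 0.0152). An alpha/beta-hydrolase gene (Bra036841) read 69.2, 20.6 and 22.7 in Chiifu and 676, 873 and 3074 in Kenshin. It read below the random-sequence feature in Chiifu at 12 and 28 °C, so that only the 22 °C pair gives a measured difference, of 2.61 (adjusted p of the fit = 0.027). BrBGLU23 (Bra034060), a beta-glucosidase gene, and a nucleotide-diphospho-sugar transferase gene (Bra025828) had means of 1.73 (adjusted p = 0.0291) and 1.54 (adjusted p = 0.0141).

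Of 15 further genes of the list, 7 were called higher in Kenshin, against 2.44% of all genes tested, and the median was 1.68. A RING/U-box gene (Bra025860), of a family that holds many ubiquitin ligases, read 27.4, 27.4 and 59.1 in Chiifu at 22, 12 and 28 °C and 2422, 2404 and 5394 in Kenshin. In Chiifu it read near the random-sequence feature at 22 and 12 °C, and the mean difference was 5.21 (SE 0.20, adjusted p = 0.0014). The next identifier, Bra025861, read 53.1, 58.7 and 147 in Chiifu and 1979, 1928 and 4522 in Kenshin, with a mean of 4.34 (SE 0.16, adjusted p = 0.0014). These neighbours in the numbering thus had nearly the same pattern. Bra012220, unnamed here, read 183, 112 and 97.2 in Chiifu and 5190, 4062 and 11440 in Kenshin (mean 5.15, SE 0.40, adjusted p = 0.0057). Bra010352, also unnamed here, read 596, 604 and 1785 in Chiifu and 4135, 4187 and 9370 in Kenshin (mean 2.58, SE 0.16, adjusted p = 0.0031). A LURP-one-like gene (Bra021211) and a calmodulin-binding protein-related gene (Bra029324) had means of 1.98 (adjusted p = 0.0402) and 2.42 (adjusted p = 0.0456). BreIF4E3 (Bra032325), for a factor that binds the mRNA cap, had a mean of 1.92 (SE 0.20, adjusted p = 0.0132).

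Of the 25 called genes among the list genes and the 4 most separated genes, 8 kept the call under every alternative in which they were tested, namely the 4 most separated genes, Bra025860, Bra025861, Bra012220 and Bra010352. The other 17 lost it under at least 1 alternative. Of the 8, only Bra010352 was tested under all 12 alternatives. The rest of the 8 were tested under 11. They were left out of the fit limited to genes over the PI minimum in at least 1 sample of each line. All 8 were picked on these samples for a line difference, so their kept calls are no independent evidence. All 25 kept their direction throughout. Every called gene had the same sign in each pair, so only quantile normalization and median scaling could have turned it.

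Temperature took the larger share of the variation in most genes, and line the larger share of the pooled variation. Split per gene, the sum of squares had a median share of 47.6% for temperature, 18.8% for line and 17.4% for the remainder. By degrees of freedom alone the mean shares would be 40%, 20% and 40%, which are not directly comparable with these medians. Line exceeded temperature in 9059 genes (33.6%). Temperature has 2 degrees of freedom and line 1, so temperature would lead in most genes even without any effect. The count was not tested against this. Pooled over genes, line took 47.8% of the squares and temperature 37.6%. In the called genes, which were selected for a steady line difference, the median line share was 90.2%.

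A call was followed by the same call in the numbering of the gene models more often than its share over all genes. This held in both directions and was not tested. For genes called higher in Chiifu the next identifier was tested for 860. It was called higher in Chiifu for 109 (12.7%) and higher in Kenshin for 20 (2.33%). For Kenshin the next identifier was tested for 455 genes, of which 31 (6.81%) were followed by a call in the same direction and 29 (6.37%) by the opposite call. Over all genes tested, 4.78% were called higher in Chiifu and 2.44% in Kenshin. The longest run was 5 identifiers for Chiifu and 3 for Kenshin. Positions on the chromosomes were not used here, so that neighbouring numbers are not shown to be neighbours in the genome.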

How the data were processed

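Gene expression was measured on the single-colour NimbleGen Br135K microarray in 6 samples of 2 lines at 3 temperatures. Per gene, the authors deposited 1 linear intensity summarised over its probes. The submitters' processing notes name RMA without a version, and the remaining steps are not given in the sources used here. Values were used as deposited, and 50 was added to each before log2. Genes over 500 in at least 1 sample were kept. The lines were compared with R 4.3.3 and its package limma 3.58.1 (linear model with moderated variances, temperature as a block, 2 residual and 2.61 prior degrees of freedom, Benjamini-Hochberg adjustment, threshold 0.05). Since nothing shows that the samples are repeated cultures, p-values measure only the spread of the line difference between temperatures. The fit was tested on simulated data. Counts used Python 3.11.15 with pandas 2.3.3 and numpy 2.4.6, and figures matplotlib 3.10.9.

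Groups came from the sample labels. The 98 list genes, in 12 lists, are those the study names with an identifier in its tables of heat shock genes and Kenshin candidates or, for light and growth regulators and MPSR1, in its text. The 2 genes highest in each line by the smallest paired difference and list genes whose difference turned were also named. Members and lists were chosen with earlier results of these data known. Gene names and roles follow the study's annotation. The reference table matched 1 identifier, so no sequence is shown. Alternatives were 0 or 200 added, other minimums, quantile normalization, median scaling, no block, a variance trend and each pair left out. Polysomal RNA, splicing and qRT-PCR were not analysed here.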

Additional observations from a re-analysis of the deposited data

Results flagged for a closer look

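The line difference of BrHSP18.2 Bra002539 turned between temperatures, from -1.52 at 12 °C to 2.70 at 28 °C, a gap of 4.21 on the log2 scale. That of BrHSP21 Bra026317 turned from 1.92 at 22 °C to -1.06 at 12 °C, a gap of 2.98. Each value comes from 1 pair of samples, and these differences between temperatures were not tested.

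Of 14 control features for the marker genes sGFP and Bar, which the comparisons did not use, 12 read above the random-sequence feature in all 6 samples, 6 exceeded 500 in at least 1 sample, and the highest PI was 1517. A pair of these features, 1 for each strand, was at least 2-fold higher in Kenshin at 22 and 28 °C. The sense member read 234, 154 and 255 in Chiifu at 22, 12 and 28 °C and 585, 214 and 1116 in Kenshin. What these features bound was not tested.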

How the results depend on the processing

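More genes were called higher in Chiifu than in Kenshin under all 12 alternatives of the fit. No called gene changed sign under any of them. Since every called gene had the same sign in each pair, only quantile normalization and median scaling could have turned a sign. The fit limited to genes over 500 in each line called 201 genes for Kenshin and 502 for Chiifu, out of 334 and 725 called genes that it could test. With a pair left out, a fit with 1 residual degree of freedom, the calls ranged from 176 to 433 for Kenshin and from 434 to 953 for Chiifu. At every temperature a 2-fold difference was found for 179 and 468 genes over 500 in each line, and a 3-fold difference for 227 and 592. Over the remaining 2 pairs, the counts were 637 to 834 for Kenshin and 1145 to 1272 for Chiifu. On and off genes numbered 68 for Chiifu and 20 for Kenshin at limits of 1000 and 100, and 51 and 7 at limits of 500 and 50. With a pair left out they numbered 143 to 158 and 48 to 54.

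Of the genes named or listed without a call, 14 changed direction under some alternative. By other settings, Bra018216 gave -0.0334 after median scaling, Bra006697 gave 0.022 with 200 added, and Bra008580 gave 0.0027 after quantile normalization. With a pair left out, the difference ran from -0.66 to 0.83 for Bra026317, -0.16 to 0.39 for Bra022083, -0.30 to 0.18 for Bra022084, -0.30 to 0.26 for Bra018216, -0.23 to 1.88 for Bra002539, -0.67 to 0.34 for Bra006697, -0.13 to 1.35 for Bra020295, -0.066 to 1.70 for Bra006137, -0.21 to 0.26 for Bra038496, -0.19 to 0.13 for Bra008580, -0.45 to 0.13 for Bra000283, -0.37 to 1.18 for Bra021258, -0.28 to 1.54 for Bra008362 and -0.36 to 1.04 for Bra001043. Of the uncalled genes, 5 passed under some alternative. Depth is unknown for arrays, and values near the random-sequence feature carry no order.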
